A study of Mus musculus with 40 samples.

Results

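Th17 cells were compared with Th1 cells, both made from naive CD4+ T cells of mice that lack Malt1, on arrays hybridised with RNA taken 72 h after induction. The comparison was made as Th17 minus Th1 over all 10730 genes whose probes passed a detection filter, and it used 10 of the 40 arrays of the series. Its groups were 5 arrays of Malt1-/- Th17 cells at 72 h and 5 arrays of Malt1-/- Th1 cells at 72 h. The corresponding pairs in WT cells at 72 h and in Malt1-/- cells at 48 h, 5 arrays a group, were used to test where the lineage difference itself differed. The starting cells of all groups were CD4+CD62L+, taken from lymph node and spleen of C57BL6 mice that were 8 to 12 weeks old, and the labels name no other allele, transgene or agent. They leave unsaid which stretch of Malt1 is missing, which cytokines or antibodies the cultures received, and whether the 5 samples of a group came from separate mice. The p-values therefore reflect only the variation among these samples, part or all of which may be technical.

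A naive CD4+ T cell that is activated takes up one of several helper fates, each with a master transcription factor and a set of cytokines. Th1 cells are set up by interleukin-12 and interferon-gamma through Stat4 and Tbx21 and make interferon-gamma, while Th17 cells are set up by TGF-beta and interleukin-6 through Stat3 and nuclear receptors such as Rora and make IL-17A and IL-17F. Malt1 is a protease and scaffold that carries signals from the antigen receptor to NF-kappaB and cuts several regulators of mRNA stability and signalling.

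The 10 arrays resembled each other in brightness, with median raw signals between 134.9 and 179.4 and between 15532 and 17409 probes detected. Levels are given below as log2 signal after background correction and quantile normalization, and a gene was called where its adjusted p (limma over all genes, Benjamini-Hochberg) was under 0.05. Malt1, the deleted gene, read 7.77, 7.42, 7.7, 8.92 and 7.86 in Malt1-/- Th17 cells and 5.92, 7.24, 5.96, 6.73 and 6.67 in Malt1-/- Th1 cells. Its WT levels at 72 h were 12.69, 12.21, 12.77, 12.63 and 13.11 in Th17 cells and 11.11, 11.27, 10.91, 11.36 and 12.46 in Th1 cells, so that every Malt1-/- array lay below every WT array. Within the Malt1-/- cells its remaining signal was higher in Th17 than in Th1 by 1.43 ± 0.30 on the log2 scale (SE, adjusted p = 0.00038), whereas the other probe differed by 0.21 (adjusted p = 0.48). Replicate 2 of the Malt1-/- Th17 cells and replicate 2 of the Malt1-/- Th1 cells were slightly closer to the 48 h group of their own lineage (correlations 0.9886 and 0.9887) than to the other arrays of their own group (0.9878 and 0.9839), and results that rest on these arrays are given with and without them. T cell markers were high on all 10 arrays, with summed signals of 44400 to 58200 in Th17 and 39400 to 50000 in Th1 cells. The bulk RNA does not show whether a lower level came from fewer cells of a kind or from less RNA per cell: these cannot be told apart.

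Of the 10730 genes, 2227 were called (20.8%), 1244 of them higher in Th17 cells (11.6%) and 983 lower (9.16%). At least 2-fold differences were called for 377 genes that were higher (3.51%) and 460 that were lower (4.29%). The 5 Th17 values all lay above the 5 Th1 values for 890 of the called genes (8.29%) and all below them for 697 (6.5%). The median difference over all genes tested was 0.02 on the log2 scale. The genes farthest from equality were Il17f and Nt5e on the Th17 side and Osr2, Usp18 and Ifng on the Th1 side.

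**Figure D1:**
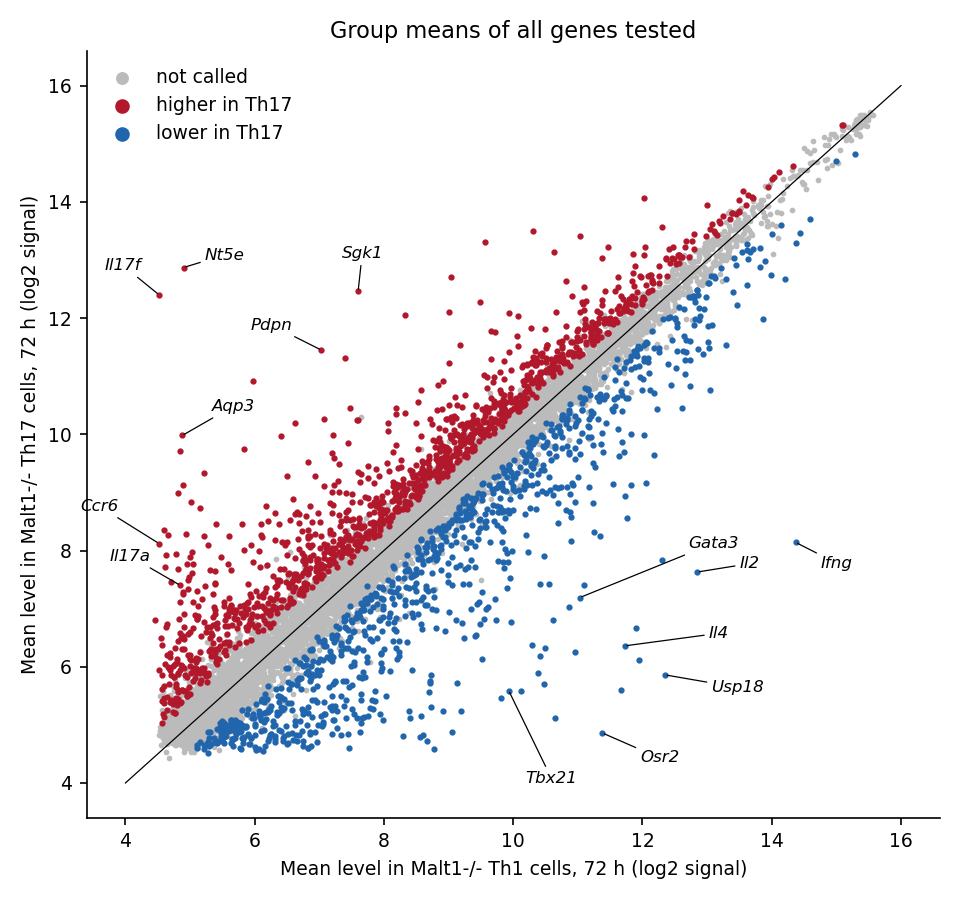
Mean log2 signal of each of the 10730 genes in 5 Malt1-/- Th17 arrays (vertical axis) against 5 Malt1-/- Th1 arrays (horizontal axis), both at 72 h. Each point is a gene, red where it was called higher in Th17, blue where it was called lower and grey where it was not called, and the line marks equal levels. Il17f and Nt5e stand far above the line near the floor of the Th1 axis, and Osr2 and Ifng far below it.

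Of 18 genes listed for the Th17 lineage 13 were tested, and 7 of these were higher in Malt1-/- Th17 cells and 1 was lower, against 11.6% and 9.16% over all genes. Their median difference was 1.29 on the log2 scale, or 0.75 with genes undetected in Th1 cells set at their lower bound. Il17f, which encodes the cytokine IL-17F, read 12.75, 12.2, 12.79, 12.66 and 11.57 in Th17 cells and 4.54, 4.52, 4.59, 4.49 and 4.47 in Th1 cells. It was well above background on all 5 Th17 arrays and on no Th1 array, and was at least 143-fold higher in Th17 cells (adjusted p = 7.4e-15). Such bounds set the mean of the detected group against, on each array of the other group, the dimmest signal that counted as detected there or the probe's own if higher. Il17a, its neighbour on chromosome 1 and the best known Th17 cytokine, read 9.05, 6.68, 6.6, 8.34 and 6.34 in Th17 cells and 4.96, 5.3, 4.6, 4.75 and 4.63 in Th1 cells, where it was detected on 1 of 5 arrays. All 5 Th17 values lay above all Th1 values, with a difference of 2.55 ± 0.49 (SE, adjusted p = 0.00015), and 2 of the Th17 arrays, replicates 1 and 4, stood above the other 3.

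Among the receptors and regulators of the lineage, Rora, an orphan nuclear receptor, read 9.21, 8.19, 8.55, 8.88 and 7.42 in Th17 cells and 6.77, 5.01, 5.83, 5.33 and 6.06 in Th1 cells. It was higher by 2.65 ± 0.37 (SE, adjusted p = 7.7e-07) with no overlap, although a second, dimmer probe of the gene differed by 0.02 (adjusted p = 0.96). Ccr6, the chemokine receptor that guides Th17 cells, read 8.87, 8.16, 7.95, 6.12 and 9.49 in Th17 cells and between 4.48 and 4.56 on the 5 Th1 arrays, none of which detected it. That is at least 7.38-fold higher in Th17 cells (adjusted p = 1.1e-06), and replicate 4 was the lowest of the Th17 arrays. Ccl20, the ligand of that receptor, was higher by 2.88 ± 0.49 (SE, adjusted p = 2.5e-05), and Maf, a transcription factor that drives interleukin-21 and interleukin-10, was at least 1.68-fold higher (adjusted p = 0.00012). Il6ra, the interleukin-6 receptor, was higher by 1.51 ± 0.43 (SE, adjusted p = 0.0087), though its other probes differed by 0.33 and 0.67 without being called, and it was not called when the probes were averaged.

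Batf, an AP-1 factor needed for the Th17 fate in mice, was the list's 1 gene that fell, by 0.97 on the log2 scale (adjusted p = 0.00025), reading 10.71, 10.62, 10.96, 10.54 and 10.39 in Th17 cells and 11.67, 11.15, 11.84, 11.65 and 11.76 in Th1 cells. Il21, a cytokine shared by Th17 and follicular helper cells, read between 10 and 11.76 in Th17 cells and between 10.71 and 11.86 in Th1 cells, a difference of -0.45 that was not called (adjusted p = 0.53). The factors Irf4 and Stat3 differed by -0.19 and 0.41, and Nfkbiz, an atypical NF-kappaB inhibitor that promotes Il17a transcription in mice, by 0.71 (adjusted p = 0.22, 0.27 and 0.061). Without Th1 replicate 2 the difference of Nfkbiz was 0.88 and was called (adjusted p = 0.02). Il23r, Il22 and Ahr did not pass the detection filter.

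The promoters of the paired Il17 genes are printed because both genes carry the lineage difference and Rora binds a short core sequence. Each window holds 300 bases around the RefSeq start of the gene (GRCm38.p6). The Il17f window is chr1:20784221-20784520 on the minus strand and the Il17a window chr1:20730655-20730954 on the plus strand, and capitals mark the letters AGGTCA, searched on both strands, which in Il17a lie on the opposite strand and so read TGACCT.
Il17f: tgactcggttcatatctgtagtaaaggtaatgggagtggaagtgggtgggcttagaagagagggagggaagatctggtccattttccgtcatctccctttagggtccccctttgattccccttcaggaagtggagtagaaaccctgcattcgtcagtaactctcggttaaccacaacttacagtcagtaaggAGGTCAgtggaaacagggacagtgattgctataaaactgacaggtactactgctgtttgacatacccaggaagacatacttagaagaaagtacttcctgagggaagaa
Il17a: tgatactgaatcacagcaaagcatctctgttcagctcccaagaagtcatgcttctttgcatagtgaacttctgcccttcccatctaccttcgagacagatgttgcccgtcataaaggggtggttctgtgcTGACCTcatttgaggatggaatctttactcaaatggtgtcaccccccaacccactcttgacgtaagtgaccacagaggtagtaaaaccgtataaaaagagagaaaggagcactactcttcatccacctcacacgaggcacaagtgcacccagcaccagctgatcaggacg
Each window held 1 match. The same letters occurred in 16.3% of all 32851 RefSeq promoter windows and in 12.6% of the 11141 windows of genes tested, so a match describes the sequence and is no evidence of binding.

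Of 19 genes listed for the Th1 lineage 16 were tested. In Malt1-/- Th17 cells 8 of these were lower and 3 higher, against 9.16% and 11.6% over all genes. Their median difference was -0.42 (-0.18 with bounds). Ifng, which encodes interferon-gamma, read 8.26, 9.4, 7.53, 6.41 and 9.14 in Th17 cells and 15.13, 14.29, 14.45, 13.95 and 14 in Th1 cells. It was 74.6-fold lower in Th17 cells (log2 difference -6.22 ± 0.48, SE, adjusted p = 2e-12), and its Th17 values spread over a wider range than its Th1 values. Tbx21, the T-bet factor that specifies Th1 cells, read 5.29, 5.92, 5.9, 4.74 and 6.07 in Th17 cells and 9.6, 10.37, 9.99, 10.03 and 9.64 in Th1 cells, a 20.3-fold difference with no overlap (-4.34 ± 0.26, adjusted p = 3.9e-15).

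The interleukin-12 pathway, which stabilises the Th1 fate, differed at several steps. Il12rb2, the inducible chain of the interleukin-12 receptor, read 6.98, 5.3, 6.52, 6.02 and 4.66 in Th17 cells and 10.87, 9.53, 10.62, 9.98 and 10.92 in Th1 cells. This amounted to -4.49 ± 0.56 (SE, adjusted p = 1.3e-07), and the shared chain Il12rb1 differed by -1.89 ± 0.30 (SE, adjusted p = 9.4e-06). Stat4, the factor that this receptor activates, differed by -2.75 ± 0.27 (SE, adjusted p = 9.2e-10); 1 of its other probes was called at -2.82 and another differed by -0.3 without a call. Hlx, a homeobox partner of T-bet, was also lower (-2.04 ± 0.24, SE, adjusted p = 4.5e-08). Havcr2, the inhibitory receptor TIM-3, and Twist1, a repressor of inflammatory genes in Th1 cells, were undetected on all Th17 arrays and at least 1.83-fold and 1.48-fold lower (adjusted p = 3.7e-05 and 0.0053).

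The 3 listed Th1 genes that rose in Th17 cells were Cxcr3, Cxcr6 and Il27ra. Cxcr3, a chemokine receptor usually carried by Th1 cells, read 7.58, 6.79, 7.54, 7.74 and 6.85 in Th17 cells and 4.73, 5.97, 4.67, 5.17 and 5 in Th1 cells, a difference of 2.19 ± 0.34 (SE, adjusted p = 4.5e-06). Cxcr6, the receptor for Cxcl16, was higher by 2.36 ± 0.26 (SE, adjusted p = 7.9e-09), and the interleukin-27 receptor Il27ra by 0.85 ± 0.17 (SE, adjusted p = 0.00019). All of these were without overlap, and the same 3 genes were also called higher in WT Th17 cells (1.28, 2.21 and 1.13). Il18r1, Eomes and Ifngr1 differed by 0.69, 0.21 and 0.80 and were not called (adjusted p = 0.28, 0.71 and 0.087), but without Th17 replicate 5 Ifngr1 was called at 0.97 (adjusted p = 0.047). Ifngr2, the other interferon-gamma receptor chain, differed by 0.35 without a call. Both of its other probes were called higher (0.97 and 1.19, adjusted p = 0.0054 and 0.00097). With averaged probes it was called at 0.84 (adjusted p = 0.0042), so that 4 listed Th1 genes then rose.

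**Figure D2:**
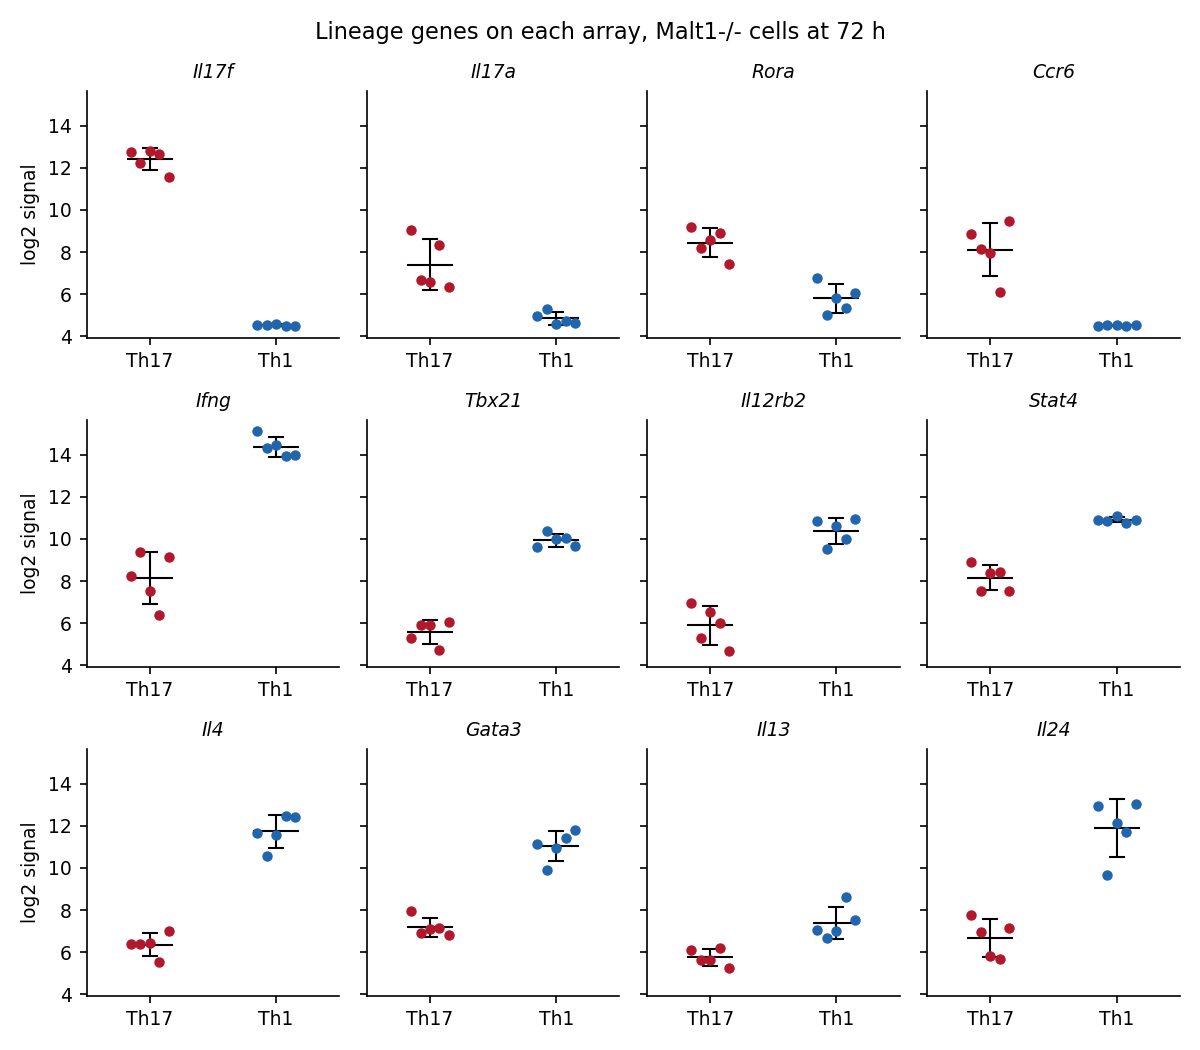
Log2 signal of 12 genes on each of the 10 Malt1-/- arrays at 72 h, Th17 left of Th1 in each panel; points are arrays, the line is the mean and the bar its SD (n = 5 each). The top row holds Il17f, Il17a, Rora and Ccr6, the middle row Ifng, Tbx21, Il12rb2 and Stat4, and the bottom row Il4, Gata3, Il13 and Il24; in each panel the 2 groups do not overlap.

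Of 13 genes listed for the Th2 fate 9 were tested. In Malt1-/- Th17 cells 4 of these were lower than in Malt1-/- Th1 cells and none was higher, against 9.16% and 11.6% over all genes. The other 5 were not called, and the median difference was -0.39. Il4, the defining Th2 cytokine, read 6.4, 6.4, 6.44, 5.52 and 7.02 in Th17 cells and 11.65, 10.54, 11.57, 12.47 and 12.41 in Th1 cells. It was 41.4-fold lower in Th17 cells (-5.37 ± 0.42, SE, adjusted p = 2.9e-12). Gata3, the master factor of Th2 cells, read 7.95, 6.93, 7.11, 7.14 and 6.81 in Th17 cells and 11.14, 9.9, 10.93, 11.41 and 11.79 in Th1 cells, 14.4-fold lower in Th17 cells (-3.85 ± 0.36, SE, adjusted p = 2.5e-10). The Il4 and Gata3 signals of the cells labelled Th1 thus lay well above those of the Th17 cells on all 5 arrays. Il13, a cytokine of the same locus as Il4, read 6.11, 5.63, 5.64, 6.2 and 5.23 in Th17 cells and 7.03, 6.67, 6.99, 8.6 and 7.55 in Th1 cells (-1.60 ± 0.24, SE, adjusted p = 2.5e-06).

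Il24, a cytokine of the interleukin-10 family made by Th2 cells, spread widely, with 7.77, 6.94, 5.83, 5.68 and 7.13 in Th17 cells and 12.95, 9.64, 12.15, 11.71 and 13.05 in Th1 cells (-5.23 ± 1.22, SE, adjusted p = 0.0015). Th1 replicate 2 was its lowest Th1 array and still lay above every Th17 array. Il5, another Th2 cytokine, was near the floor and differed by -0.39 without a call (adjusted p = 0.11); it was called at -0.5 without Th1 replicate 2 (adjusted p = 0.04). The receptor genes Ccr4 and Il4ra and the factor Stat6 differed by -0.15, -0.18 and 0.18, and Ccr8, a chemokine receptor of Th2 and regulatory cells, by 0.42, none of them called (adjusted p = 0.72, 0.73, 0.53 and 0.64). The sign of Ccr8 rested on Th1 replicate 2, which read 7.08 against 9.12 to 10.11 on the other Th1 arrays, and the difference was -0.07 without it.

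Of 18 other cytokine genes, all tested, 8 were lower in Th17 cells and 2 were higher, against 9.16% and 11.6% over all genes. Their median was -0.92. Il2, the T cell growth factor, read 9.55, 6.7, 7.31, 6.96 and 7.6 in Th17 cells and 11.92, 14.2, 12.22, 14.37 and 11.53 in Th1 cells, 37.3-fold lower in Th17 cells (-5.22 ± 0.79, SE, adjusted p = 3.9e-06). Replicates 2 and 4 were the highest of the Th1 arrays and no Th17 array reached the Th1 range. Csf2, which encodes GM-CSF, a growth factor for myeloid cells, read 6.02, 6.86, 5.88, 5.95 and 6.22 in Th17 cells and 9.51, 10.6, 9.71, 12.4 and 9.85 in Th1 cells (-4.23 ± 0.50, SE, adjusted p = 3.6e-08). Tnfsf8, the CD30 ligand, and Lif, a cytokine of the interleukin-6 family, were lower by 15.6-fold and 7.28-fold (adjusted p = 2.4e-14 and 9.6e-08), with 1 of the 2 other Lif probes called at -2.95 and the other at -0.58 without a call. Il16, a ligand of CD4, was 2.91-fold higher in Th17 cells (adjusted p = 9.6e-08).

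The largest rises by fitted difference, besides Il17f, were led by Nt5e, the ecto-enzyme CD73 that makes adenosine from AMP. It read 12.31, 13.22, 12.98, 13.06 and 12.8 in Th17 cells and 4.51, 5.24, 4.81, 5.21 and 4.73 in Th1 cells, where it was detected on 1 of 5 arrays. The fitted difference was 251-fold (7.97 ± 0.68, SE, adjusted p = 3e-11), taken with Th1 signals below background on all but 1 array. A second probe gave 6.36. Sgk1, a kinase induced by salt and glucocorticoids that promotes Th17 cells in mice, read 11.7, 12.76, 12.63, 12.94 and 12.27 in Th17 cells and 7.99, 7.48, 7.58, 7.44 and 7.51 in Th1 cells (4.86 ± 0.40, SE, adjusted p = 1.7e-11). The 5 Th1 values of Sgk1 were close together and more than 3 units below every Th17 value. Aqp3, a water and glycerol channel, read 9.32, 10.25, 9.8, 10.16 and 10.35 in Th17 cells and 4.74, 4.69, 4.8, 4.48 and 5.7 in Th1 cells. It was a fitted 34.2-fold higher in Th17 cells (adjusted p = 2.3e-12), with Th1 values near the floor on all but replicate 5.

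Pdpn, the membrane glycoprotein podoplanin, read 10.91, 11.71, 11.47, 11.53 and 11.64 in Th17 cells and 8.26, 5.7, 6.9, 6.59 and 7.71 in Th1 cells, 21.4-fold higher (adjusted p = 2.7e-07). Niban2 was 31-fold higher (adjusted p = 3e-12), and Gcnt2, a glycosyltransferase that branches polylactosamine chains, was detected on no Th1 array and at least 22.5-fold higher in Th17 cells (adjusted p = 1.6e-08). Prr29, also undetected in Th1 cells, was at least 13.6-fold higher (adjusted p = 1.5e-14). Timp2, an inhibitor of matrix metalloproteinases, Endod1, and Pdlim5, a scaffold with PDZ and LIM domains, were 17.2-fold, 15.1-fold and 14.9-fold higher (adjusted p = 1.4e-05, 2.9e-11 and 4.9e-10). Each of these genes was also called higher in WT Th17 cells at 72 h and in Malt1-/- Th17 cells at 48 h. The remaining gene of the 12 largest rises was S100a8, described with the myeloid markers.

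Among the 12 largest falls, beside Ifng, Il4, Il24 and Il2, Osr2 came first. This zinc finger factor, known for its part in palate and limb development, read 4.75, 4.95, 5.1, 4.69 and 4.8 in Th17 cells, none of them above background, and 11.35, 10.86, 11.62, 11.59 and 11.48 in Th1 cells. It was at least 69.5-fold lower in Th17 cells (adjusted p = 3.9e-15). Slc17a6, a vesicular glutamate transporter of neurons, read 7.02, 4.89, 5.55, 5.75 and 4.8 in Th17 cells and 12.21, 11.29, 12.07, 10.94 and 11.84 in Th1 cells, 67.1-fold lower in Th17 cells (adjusted p = 4.6e-14). For both, the lowest Th1 array stood above the highest Th17 array by more than 3 units. Tg, the thyroid hormone precursor thyroglobulin, Scin, an actin-severing protein, and the gene listed as 1810009J06Rik were 25.9-fold, 23.3-fold and 46.2-fold lower in Th17 cells (adjusted p = 4.7e-06, 4.5e-13 and 1.1e-08). Atf3, a stress-induced transcription factor, was 27.3-fold lower (adjusted p = 1.4e-10). The interferon-stimulated genes Usp18 and Isg15 complete the 12.

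Interferon-stimulated genes were lower in Th17 cells as a group. Of 39 listed 32 were tested, and 24 of these were lower and none higher, against 9.16% and 11.6% over all genes; the median difference was -1.31 (-1.2 with bounds). In 21 of them all Th17 values lay below all Th1 values, which held for 6.5% of all genes. Usp18, which removes ISG15 from proteins and damps the type I interferon receptor, read 7.45, 5.39, 5.82, 5.4 and 5.22 in Th17 cells and 13.72, 11.07, 13.02, 11.27 and 12.66 in Th1 cells, 89.9-fold lower in Th17 cells (-6.49 ± 0.63, SE, adjusted p = 6e-10). Isg15, the ubiquitin-like modifier itself, read 7.48, 5.06, 6.6, 5.65 and 5.78 in Th17 cells and 13.49, 10.17, 12.67, 10.72 and 12.66 in Th1 cells, 56.7-fold lower (-5.83 ± 0.70, SE, adjusted p = 5e-08). In Th1 cells replicates 2 and 4 were the lowest for both genes, and replicate 1 was the highest of the Th17 arrays.

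Among the 24 that were lower, Irgm2 and Igtp, GTPases that act against intracellular pathogens, were 2.87-fold and 2.72-fold lower in Th17 cells (adjusted p = 7.8e-11 and 6.8e-10), and Psmb9, an immunoproteasome subunit, 2.91-fold lower (adjusted p = 1.4e-10). Cxcl10, a ligand of Cxcr3, read 5.2, 4.8, 5.44, 4.86 and 5.26 in Th17 cells and 8.64, 7.02, 7.98, 6.62 and 6.78 in Th1 cells (-2.29 ± 0.36, SE, adjusted p = 5.8e-06). The 8 that were not called were Gbp2, Gbp3, Cxcl9, Socs1, Ifi47, Ifi35, Ifit2 and Tapbp. Without Th1 replicate 2, Ifi35, Ifit2 and Tapbp were called lower (-0.79, -0.71 and -0.84, adjusted p = 0.022, 0.043 and 0.048). The call of Tgtp1 was lost there (adjusted p = 0.068), and the count of lower genes was 26. The GTPase Gbp2 read 12.48 to 14.17 in Th17 cells and 13.9 to 14.35 in Th1 cells, and Ifi47, another GTPase, 11.54 to 12.4 in Th17 cells and 11.45 to 12.11 in Th1 cells, with overlapping groups in both. The median over the 32 genes was 7.83, 7.57, 7.8, 7.56 and 7.62 on the Th17 arrays and 10.2, 8.92, 9.82, 9.17 and 9.51 on the Th1 arrays, so that Th1 replicates 2 and 4 were again the lowest of their group. In WT cells 23 of the 32 were lower in Th17 than in Th1 cells (9.2% over all genes), and the test of the difference between genotypes called none of the 32. Their median on the WT Th1 arrays was 9.78, 9.24, 9.71, 8.51 and 9.11, lowest on replicate 4. Usp18 read 8.47 on that array against 11.78 to 12.43 on the other WT Th1 arrays, while Gbp7 read 8.16 against 5.24 to 8.05. The bearing of that array on the test between genotypes was not tested. Over the alternatives tried, between 20 and 27 of the 32 were called lower in Malt1-/- Th17 cells.

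**Figure D3:**
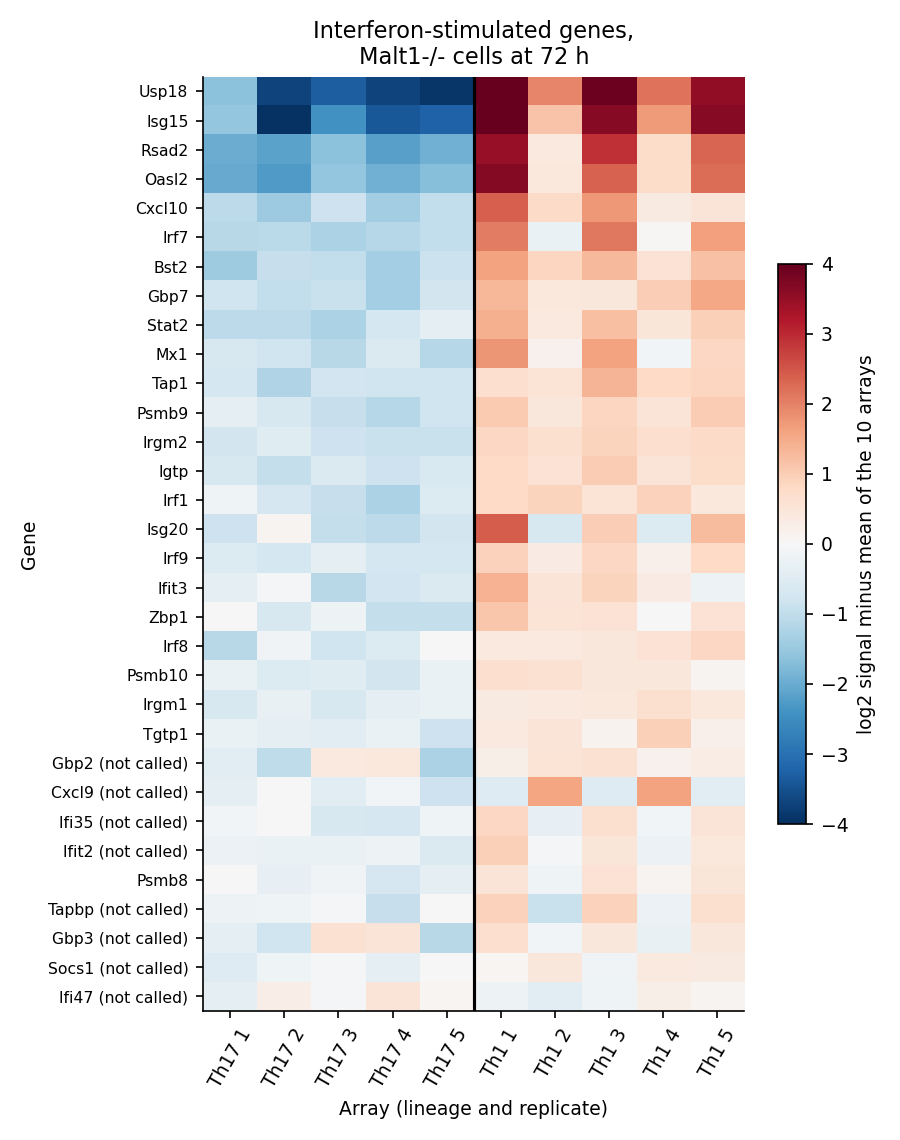
Heat map of 32 interferon-stimulated genes (rows) on the 5 Malt1-/- Th17 and 5 Malt1-/- Th1 arrays at 72 h (columns), coloured by log2 signal minus the gene's mean over the 10 arrays. The 24 genes without a mark were called lower in Th17 cells and 8 are marked as not called; Usp18 and Isg15 show the widest range, and the colours of Th1 replicates 2 and 4 are paler than those of replicates 1, 3 and 5 for most of the upper rows.

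The promoters of Isg15 and Cxcl10 are shown as 2 members of the group that hold the core letters bound by interferon regulatory factors, AANNGAAA, a motif chosen with these values known and searched on both strands. Capitals mark the matches in each RefSeq window (GRCm38.p6), chr4:156200769-156201068 on the minus strand for Isg15 and chr5:92348840-92349139 on the minus strand for Cxcl10.
Isg15: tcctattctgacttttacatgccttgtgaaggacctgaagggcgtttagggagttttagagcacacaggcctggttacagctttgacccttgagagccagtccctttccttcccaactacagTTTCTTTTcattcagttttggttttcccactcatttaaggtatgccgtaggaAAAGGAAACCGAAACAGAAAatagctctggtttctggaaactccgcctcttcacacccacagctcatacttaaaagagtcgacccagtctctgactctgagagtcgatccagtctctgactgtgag
Cxcl10: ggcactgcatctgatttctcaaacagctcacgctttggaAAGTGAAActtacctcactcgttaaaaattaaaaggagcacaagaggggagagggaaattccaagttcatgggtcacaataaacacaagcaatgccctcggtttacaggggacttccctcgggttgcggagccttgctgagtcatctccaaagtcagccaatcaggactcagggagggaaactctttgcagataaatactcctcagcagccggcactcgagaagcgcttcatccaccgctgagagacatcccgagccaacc
The Isg15 window held 4 matches, 3 of them overlapping and 1 on the opposite strand, and the Cxcl10 window 1. The motif was found in 12 of the 26 windows of the lower interferon-stimulated genes (46.2%, 21 of 24 genes matched), in 5 of the 10 windows of the 8 that were not called (50%), in 18.7% of the windows of all genes tested and in 23.9% of all RefSeq windows. Its share was therefore no higher among the genes that fell than among those not called.

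Of 17 tested genes of the TGF-beta pathway, which acts in the Th17 fate, 7 rose and 3 fell, with a median of 0.33. Over all genes 11.6% rose and 9.16% fell. The count of 3 that fell was 2 without Th17 replicate 2, 3, 4 or 5, without Th1 replicate 1, 3 or 5, and with median scaling. Tgfbr1, the signalling receptor, was 6.98-fold higher in Th17 cells, reading 12.33, 12.68, 11.83, 11.89 and 12.7 in Th17 cells and 9.53, 9.39, 9.32, 9.58 and 9.58 in Th1 cells (adjusted p = 1.5e-08). Smad3, the transducer of that receptor, was 3.36-fold higher (adjusted p = 8.6e-11), and Itgae, the TGF-beta-induced integrin chain CD103, 14.2-fold (adjusted p = 2.2e-06), with 3 of its 5 other probes called higher. Furin, the protease that matures TGF-beta, fell by 1.05 on the log2 scale (adjusted p = 3.7e-07). Of 14 tested genes of interleukin-6 and STAT signalling 4 were higher and 3 lower (median 0.35). Il6st, the shared receptor chain gp130, and Socs2, a feedback inhibitor, were higher by 1.29 and 2.37 (adjusted p = 0.0042 and 4.3e-07), and Jak2, a receptor kinase, fell by 1.59 (adjusted p = 2.4e-08). Of 3 tested targets of the aryl hydrocarbon receptor Cyp1b1, a monooxygenase, and Ahrr, the receptor's repressor, rose by 2.72 and 1.27 (adjusted p = 2.9e-09 and 0.0002), and Nqo1 differed by 0.16 without a call (adjusted p = 0.63; -0.02 without Th17 replicate 2).

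Of 11 tested cytotoxic genes 6 were lower in Th17 cells and 3 higher, with a median of -1.15. Over all genes 9.16% were lower and 11.6% higher, the shares to set beside each list of this paragraph. Nkg7, a granule membrane protein, and Fasl, the death ligand, were 6.56-fold and 3.27-fold lower (adjusted p = 6.4e-08 and 8.3e-05). Ctsw, a cysteine protease of killer cells, read 12.25, 12.98, 12.83, 12.59 and 12.87 in Th17 cells and 9.25, 9.04, 8.74, 9.04 and 9.15 in Th1 cells, 12.6-fold higher in Th17 cells (adjusted p = 6.6e-09). Klrd1, the NK receptor chain CD94, was 8.59-fold higher (adjusted p = 6.5e-06). Of 9 tested chemokine genes 4 were lower, among them Ccl5, a T cell chemoattractant, at 22.3-fold (adjusted p = 1.3e-07), and Ccl9 at 7.36-fold (adjusted p = 5.2e-06), while Ccl20 was the 1 that rose. Xcl1, the chemokine lymphotactin, differed by 2.66 without a call (adjusted p = 0.059) and was called higher without Th1 replicate 2 or without Th1 replicate 4 (3.29 and 3.24, adjusted p = 0.021 and 0.026), so that 2 chemokine genes then rose. Of 9 tested chemokine receptors 4 were higher, Ccr6, Cxcr3, Cxcr6 and Cxcr5, and none was lower, with a median of 0.63. Without Th1 replicate 2 the counts were 3 higher and 1 lower and the median 0.27, and without replicate 2 of both lineages 3 higher and 1 lower with a median of 0.56. The 1 lower was Ccr7, the receptor that brings T cells to lymph nodes, at -0.75 without a call on all arrays and at -1 without Th1 replicate 2 (adjusted p = 0.077 and 0.016). Cxcr5, the receptor that brings T cells to follicles, was higher by 1.20 ± 0.43 (SE, adjusted p = 0.045) with overlapping groups. This call was lost without any of 8 of the 10 arrays, all but Th17 replicate 1 and Th1 replicate 4 (adjusted p up to 0.11), and neither of its other probes was called.

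Costimulatory and inhibitory receptors were mostly lower in Th17 cells, 12 of 21 tested, with none higher, against 9.16% and 11.6% over all genes. The median of these receptors was -0.96 (-0.92 with bounds). Without Th17 replicate 2, 11 were lower and 1 was higher, the inhibitory receptor Ctla4, which differed by 1.18 there (adjusted p = 0.044) and by 0.88 without a call on all arrays (adjusted p = 0.14). Btla, an inhibitory receptor, read 10.6, 9.55, 10.01, 9.78 and 9.93 in Th17 cells and 11.95, 12.27, 12, 12.05 and 11.83 in Th1 cells, 4.13-fold lower in Th17 cells (adjusted p = 3.4e-11). Cd274, the checkpoint ligand PD-L1, and Slamf1, an adhesion receptor of activated T cells, were 3.65-fold and 3.51-fold lower (adjusted p = 3.5e-08 and 3.8e-08). Cd69, an early activation marker, fell by 0.92 on the log2 scale (adjusted p = 5.5e-06), while its other probe differed by -0.12 without a call. Cd200, an inhibitory ligand, and Tnfrsf18, the receptor GITR of regulatory cells, were 5.75-fold and 3.73-fold lower (adjusted p = 2.3e-07 and 0.0024), and Bcl6, the master factor of follicular helper cells, was 4.95-fold higher in Th17 cells (adjusted p = 4.1e-05). Of 11 tested genes listed for regulatory cells 3 were higher and 2 lower (11.6% and 9.16% over all genes), with a median of 0.42. Foxp3, their master factor, was not called on its brightest probe but was called higher with averaged probes (3.11, adjusted p = 2e-11).

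Genes of cell division were higher in Malt1-/- Th17 cells by small amounts. Of 19 tested mitosis genes 12 were higher and none lower, against 11.6% and 9.16% over all genes, with a median of 0.55. Their median level was 11.28, 11.37, 11.41, 11.37 and 11.36 on the Th17 arrays and 10.71, 11.23, 10.8, 10.96 and 10.84 on the Th1 arrays. The groups did not overlap, and Th1 replicate 2 came nearest to the Th17 arrays. Prc1, which bundles microtubules in the dividing cell, was higher by 0.94 ± 0.13 (SE, adjusted p = 7.1e-07), Kif22, a chromosome motor, by 0.81 ± 0.12 (SE, adjusted p = 1.4e-06), Bub1b, a spindle checkpoint kinase, by 0.71 ± 0.11 (SE, adjusted p = 6.4e-06) and Nusap1, a spindle protein, by 0.65 ± 0.11 (SE, adjusted p = 4e-05). The 2 other Nusap1 probes were not called, nor was the gene when its probes were averaged. With median scaling in place of quantile normalization 7 of the 19 were called higher. Of 26 tested DNA replication genes 7 were higher and none lower (median 0.30), but this count rested on the scaling and on single arrays: it was 0 with median scaling, 3 without Th1 replicate 1 or without Th1 replicate 3, and 4 without Th17 replicate 5. Cdt1, which licenses replication origins, was higher by 0.66 (adjusted p = 0.004), and Mcm4 and Mcm6, helicase subunits, by 0.43 and 0.50 (adjusted p = 0.0067 and 0.027). None of these 3 was called under median scaling, 2 other Mcm4 probes differed by 0.03 and -0.14, and the call of Mcm6 was lost without Th17 replicate 2 or 4 or Th1 replicate 1, 2 or 3 (adjusted p up to 0.11).

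Cholesterol synthesis genes were higher in 10 of 21 tested and lower in none, against 11.6% and 9.16% over all genes. Their median was 0.53, and 8 to 11 were called higher over the alternatives. Mvd and Nsdhl, enzymes of the mevalonate and sterol steps, were higher by 1.28 ± 0.18 and 1.01 ± 0.16 (SE, adjusted p = 7.5e-07 and 7.4e-06). Sqle, the squalene epoxidase, and Msmo1, a sterol oxidase, were higher by 0.63 and 0.60 (adjusted p = 0.00042 and 0.00088), Msmo1 without a call under median scaling. In WT cells 2 of the same 21 genes were called higher (9.66% over all genes), and the test between genotypes called none of the 21. Genes of the unfolded protein and amino acid stress response were lower in 12 of 24 tested and higher in none (9.16% and 11.6% over all genes). Their median was -0.58, or -0.53 with bounds. Beside Atf3 these included Sesn2, a stress sensor of amino acid supply, at -1.50, Mthfd2, an enzyme of mitochondrial one-carbon metabolism, at -0.84, and Hsp90b1, a chaperone of the endoplasmic reticulum, at -0.53 (adjusted p = 0.00075, 0.0021 and 0.00069), Hsp90b1 without a call under median scaling (adjusted p = 0.064). Over the alternatives 8 to 13 of the 24 were called lower. Without Th1 replicate 5 the calls of Asns, Atf4, Ddit3 and Hspa5 were lost (adjusted p = 0.089, 0.063, 0.077 and 0.086). Without Th17 replicate 2 those of Asns, Atf4, Ddit3 and Pdia6 were lost (adjusted p = 0.094, 0.094, 0.06 and 0.053).

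Of 17 tested cell death genes 7 were lower and 1 higher (median -0.41), against 9.16% and 11.6% over all genes. Casp4, an inflammatory caspase, read 7.61, 6.63, 7.04, 6.64 and 7.21 in Th17 cells and 10.9, 10.7, 10.95, 11 and 10.83 in Th1 cells, 14.4-fold lower in Th17 cells (adjusted p = 5.9e-15). Casp1, the interleukin-1 converting caspase, was 8.85-fold lower (adjusted p = 5.8e-07). Cflar, an inhibitor of death receptor signalling, was the 1 that rose (0.68, adjusted p = 0.00047). Of 21 tested glycolysis and hypoxia genes none was higher and 1 was lower, both below the shares over all genes. The lower one was the first enzyme Hk1 (-0.78, adjusted p = 0.01). Hk1 was not called when only the 10 arrays compared were fitted, and another of its probes was not called. Gapdh, Hif1a and Pkm differed by -0.36, -0.72 and -0.31 without a call (adjusted p = 0.079, 0.11 and 0.16). With single arrays left out, Gapdh was called without Th17 replicate 3 or 4 (adjusted p = 0.038 and, just under the threshold, 0.05), Pkm without Th17 replicate 3 (0.045) and Hif1a without Th1 replicate 4 (0.042), so that the count of lower genes was 3 without Th17 replicate 3 and 2 without Th17 replicate 4 or without Th1 replicate 4.

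**Figure D4:**
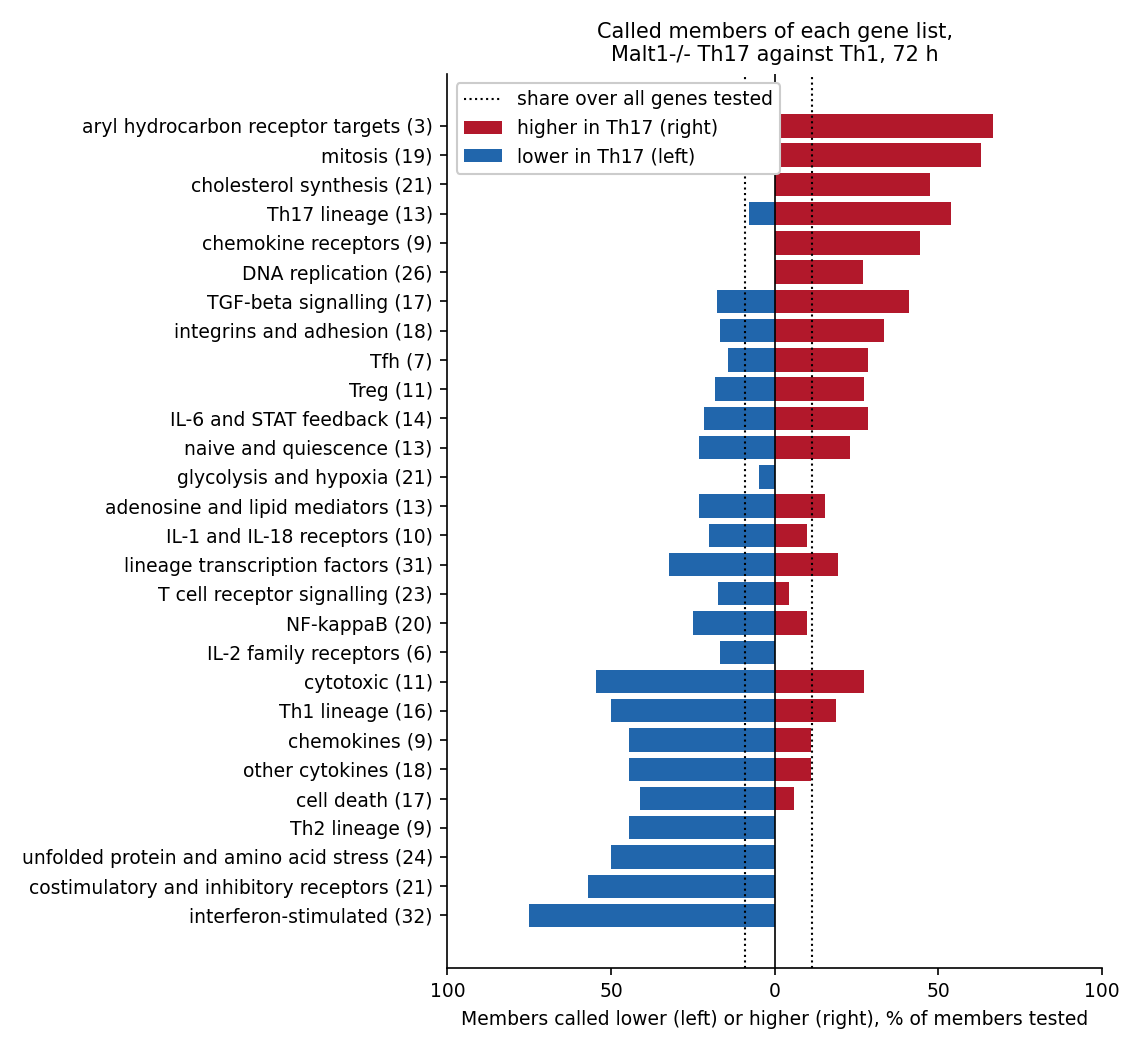
Share of the tested members of 28 gene lists that were called lower (blue, to the left) or higher (red, to the right) in Malt1-/- Th17 than in Malt1-/- Th1 cells at 72 h, in percent, with the number tested in parentheses. Dotted lines mark the shares over all genes tested, 9.16% lower and 11.6% higher. Lists overlap in genes; interferon-stimulated genes reach farthest to the left, and mitosis and cholesterol synthesis genes have bars to the right only.

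Genes of NF-kappaB and of antigen receptor signalling, the pathways in which Malt1 acts, were also listed. Of 20 tested NF-kappaB genes 5 were lower and 2 higher (median -0.08), against 9.16% and 11.6% over all genes. Tnfaip3, the feedback inhibitor A20, read 9.25, 8.02, 9.06, 9.54 and 8.85 in Th17 cells and 11.14, 9.75, 10.6, 10.47 and 11.09 in Th1 cells (-1.67 ± 0.33, SE, adjusted p = 0.00025). Traf1, an adaptor of TNF receptors, and Nfkb2 fell by 1.11 and 0.83 (adjusted p = 0.0012 and 0.0034), the second Traf1 probe without a call, and Bcl3, a nuclear co-regulator, rose by 0.91 (adjusted p = 0.0024). The count of 2 that rose was 1 when Th17 replicate 2, 4 or 5 or Th1 replicate 1, 3 or 5 was left out. Of the 5 that fell, Rel was not called without Th1 replicate 1, 2, 3 or 4 (adjusted p up to 0.11). Nor was it called without Th17 replicate 1, 3, 4 or 5 (up to 0.1). Over the alternatives 3 to 5 were called lower. Of 23 tested genes of antigen receptor signalling 4 were lower and 1 higher (median -0.07). The ubiquitin ligase Cblb and the phosphatase Dusp5, both brakes on activation, fell by 1.64 and 1.53 (adjusted p = 0.00059 and 0.00057; another Cblb probe was at -1.07 without a call), the receptor chain Cd247 fell by 1.20 (adjusted p = 0.00029) with 2 other probes not called and no call when the probes were averaged, and the exchange factor Vav1 rose by 0.77 (adjusted p = 3.4e-05).

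Other receptors and surface genes varied in both directions. Il15ra, which presents interleukin-15, was 5.04-fold lower in Th17 cells (adjusted p = 3.5e-09), with 3 of its 4 other probes called lower. It was the 1 gene called of 6 tested in the interleukin-2 receptor family, against 20.8% called over all genes. Irak2, a kinase of interleukin-1 and Toll-like receptors, was 3.38-fold lower (adjusted p = 9e-09), with 1 of its 2 other probes called at -1.69 and the other at -0.37 without a call, and Il1r2, the decoy interleukin-1 receptor, 2.96-fold higher with overlapping groups (adjusted p = 0.0049). Of 13 tested genes of the naive and quiescent state 3 rose and 3 fell, against 11.6% and 9.16% over all genes, with a median of 0.01. Igfbp4, which binds insulin-like growth factors, was 13.3-fold higher and Foxo1, a quiescence factor, 2.12-fold higher (adjusted p = 6.3e-11 and 4e-05), although the second Foxo1 probe differed by 0.3 without a call. Satb1, a chromatin organiser, was 2.38-fold lower (adjusted p = 3.8e-05), and Dapl1 was undetected in Th17 cells and at least 2.76-fold lower (adjusted p = 0.00028). The integrin chains Itgb2 and Itgav differed by 1.60 and -1.18 (adjusted p = 3.9e-06 and 0.00014), Itgav with 2 other probes not called. The prostaglandin receptors Ptgir and Ptger2 were 4.1-fold and 2.94-fold lower (adjusted p = 1.6e-09 and 1.5e-05; a second Ptger2 probe was at -0.87 without a call), as was Akr1c12, a reductase, at 3.84-fold (adjusted p = 4e-07).

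Markers of other cells were measured on the same arrays. Of 11 myeloid markers 7 were tested and 5 were higher in Th17 cells, none lower, against 11.6% and 9.16% over all genes. Their median was 2.13. The summed signal of these markers ranged from 451 to 6070 on the Th17 arrays and from 103 to 165 on the Th1 arrays. S100a8, a chain of the calprotectin dimer of neutrophils and monocytes, read 7.37, 10.44, 8.73, 7.32 and 11.77 in Th17 cells and 4.43, 5.43, 4.57, 5.35 and 4.64 in Th1 cells (4.24 ± 0.63, SE, adjusted p = 3.1e-06). Its partner S100a9 read 6.29, 9.1, 7.5, 5.99 and 10.77 in Th17 cells and no more than 4.86 in Th1 cells, at least 6.48-fold higher in Th17 cells (adjusted p = 1.9e-05). Replicates 5 and 2 were the highest Th17 arrays for both, and without replicate 5 the fitted differences were 3.58 and 2.6, that of S100a9 from Th1 signals below background. Lyz1, a lysozyme, was at least 5.46-fold higher (adjusted p = 2.3e-07) and Fcer1g, an Fc receptor chain, 4.37-fold (adjusted p = 0.0001). Lyz2, another lysozyme, was also called higher. It was not called without replicate 2 of both lineages (0.71, adjusted p = 0.062) or when only the arrays compared were fitted (1.05, adjusted p = 0.055). Csf1r and Tyrobp were detected on none of the Th17 arrays. Over the alternatives 1 to 5 of the markers were called higher. The part of other cells in the differences described above was not tested.

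No marker of B cells (4 of 6 tested), of CD8 T cells (1 of 2), of NK cells (2 of 4) or of dendritic cells and MHC class II (4 of 6) was called with all arrays. Blk, a kinase of B cells, was detected on 5 Th17 arrays and 1 Th1 array and differed by 1.16 (adjusted p = 0.086); without Th17 replicate 1 it was called higher (1.4, adjusted p = 0.047). The summed signals of the B cell markers were 87.1 to 447 in Th17 and 50.9 to 276 in Th1 cells, and those of the NK cell markers 17.5 to 70.7 in Th17 and 27.9 to 75 in Th1 cells. Those of the dendritic cell and MHC class II markers were 1890 to 6630 in Th17 and 1330 to 3610 in Th1 cells. The CD8 marker Cd8b1 differed by -0.31 (adjusted p = 0.19). Of 7 tested T cell markers Cd4 fell by 0.92 on the log2 scale (adjusted p = 0.0041) with overlapping groups, and Thy1 rose by 0.55 (adjusted p = 0.043). The call for Thy1 was lost when any of 8 of the 10 arrays was left out, all but Th17 replicate 4 and Th1 replicate 1.

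Whether the Th17-Th1 difference itself differed between Malt1-/- and WT cells was tested as a contrast of the 2 differences at 72 h. Some WT arrays of this test lay closer to a Malt1-/- group than to their own. WT Th1 replicate 4 correlated 0.9653 with its own group and 0.9889 with Malt1-/- Th1 cells at 48 h. WT Th17 replicate 4 correlated 0.9786 with its own group and 0.982 with Malt1-/- Th17 cells at 72 h. For WT Th17 replicate 5 these were 0.9702 and, with Malt1-/- Th17 cells at 48 h, 0.983. In WT cells 2023 genes were called (18.9%), 1036 higher in Th17 (9.66%) and 987 lower (9.2%), and 1168 genes were called in both genotypes, 52.4% of the Malt1-/- calls and 57.7% of the WT calls, 1164 of them in the same direction. The difference of differences was called for 75 genes (0.699%), 34 with a higher value in Malt1-/- cells (0.317%) and 41 with a lower one (0.382%). Il17a, Il4, Gata3, Csf2, Osr2 and the calprotectin genes were among them. Without the 8 arrays of the series that lay closer to another group, those WT arrays included, the count was 347.

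Il17a was higher in Th17 than in Th1 cells of both genotypes, by less in Malt1-/- cells. Its WT values were 10.46, 9.81, 10.6, 12.81 and 10.63 in Th17 cells and 5.07, 5, 4.81, 4.71 and 4.5 in Th1 cells, and every Malt1-/- Th17 value lay below every WT Th17 value. Il17a was detected on no WT Th1 array and was at least 48.7-fold higher in WT Th17 cells, against the 2.55 on the log2 scale in Malt1-/- cells. The fitted difference of differences was -3.49 ± 0.70 (SE, adjusted p = 0.007), taken with Th1 signals that lay below background on all but 1 array. Without the 8 arrays of the series that lay closer to another group this was -2.6 and was not called (adjusted p = 0.064). Il17f read 14.12, 14.16, 13.76, 14.19 and 14.13 in WT Th17 cells and was detected on no Th1 array of either genotype, so that it was at least 143-fold higher in Malt1-/- and at least 451-fold higher in WT Th17 cells. Its difference of differences was not called (adjusted p = 0.41), but was when only the arrays compared were fitted (adjusted p = 0.014). For Ifng the differences were -6.22 in Malt1-/- and -7.91 in WT cells and were not called apart (adjusted p = 0.32).

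Of the 9 Th2 genes tested, 2 were higher in WT Th17 than in WT Th1 cells and 2 lower, against 9.66% and 9.2% over all genes. Their median difference in WT cells was 0.04. The difference between genotypes was called for 2 of the 9, Il4 and Gata3. Il4 read 5.95, 6.98, 6.18, 5.98 and 5.84 in WT Th17 cells and 9.21, 7.71, 7.58, 6.65 and 7.69 in WT Th1 cells, and its Malt1-/- Th1 levels, given above, lay above all of these WT Th1 levels. The difference of differences was -3.79 ± 0.59 (SE, adjusted p = 0.00048). Gata3 averaged 7.19 ± 0.45 and 11.03 ± 0.71 in Malt1-/- Th17 and Th1 cells, against 6.3 ± 0.68 and 7.67 ± 0.4 in WT Th17 and Th1 cells (SD, n = 5 each), a difference of differences of -2.48 ± 0.51 (SE, adjusted p = 0.0084). Csf2 followed the same order, with 6.19 ± 0.4 and 10.42 ± 1.18 in Malt1-/- Th17 and Th1 cells and 6.18 ± 0.86 and 6.98 ± 0.45 in WT Th17 and Th1 cells (SD, n = 5 each; difference -3.43 ± 0.70, SE, adjusted p = 0.0084).

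Osr2 averaged 4.86 ± 0.17 and 11.38 ± 0.31 in Malt1-/- Th17 and Th1 cells and 4.66 ± 0.15 and 6.95 ± 1.12 in WT Th17 and Th1 cells (SD, n = 5 each), with no detection in Th17 cells of either genotype. It was thus at least 69.5-fold lower in Malt1-/- and at least 3.27-fold lower in WT Th17 cells. The difference of differences was called (fitted value -4.23 ± 0.54, SE, adjusted p = 3.2e-05), but with Th17 signals below background its size is no measured change in level. Efna5, a membrane-bound ephrin ligand, and Edn1, the vasoconstrictor peptide endothelin, were lower in Th17 cells in Malt1-/- cells by 5.64-fold and 12.9-fold and were not called in WT cells (0.56 and -0.39), where Edn1 was detected on 1 of the 10 arrays. Their differences of differences were -3.06 ± 0.45 and -3.30 ± 0.54 (SE, adjusted p = 0.00016 and 0.00072).

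**Figure D5:**
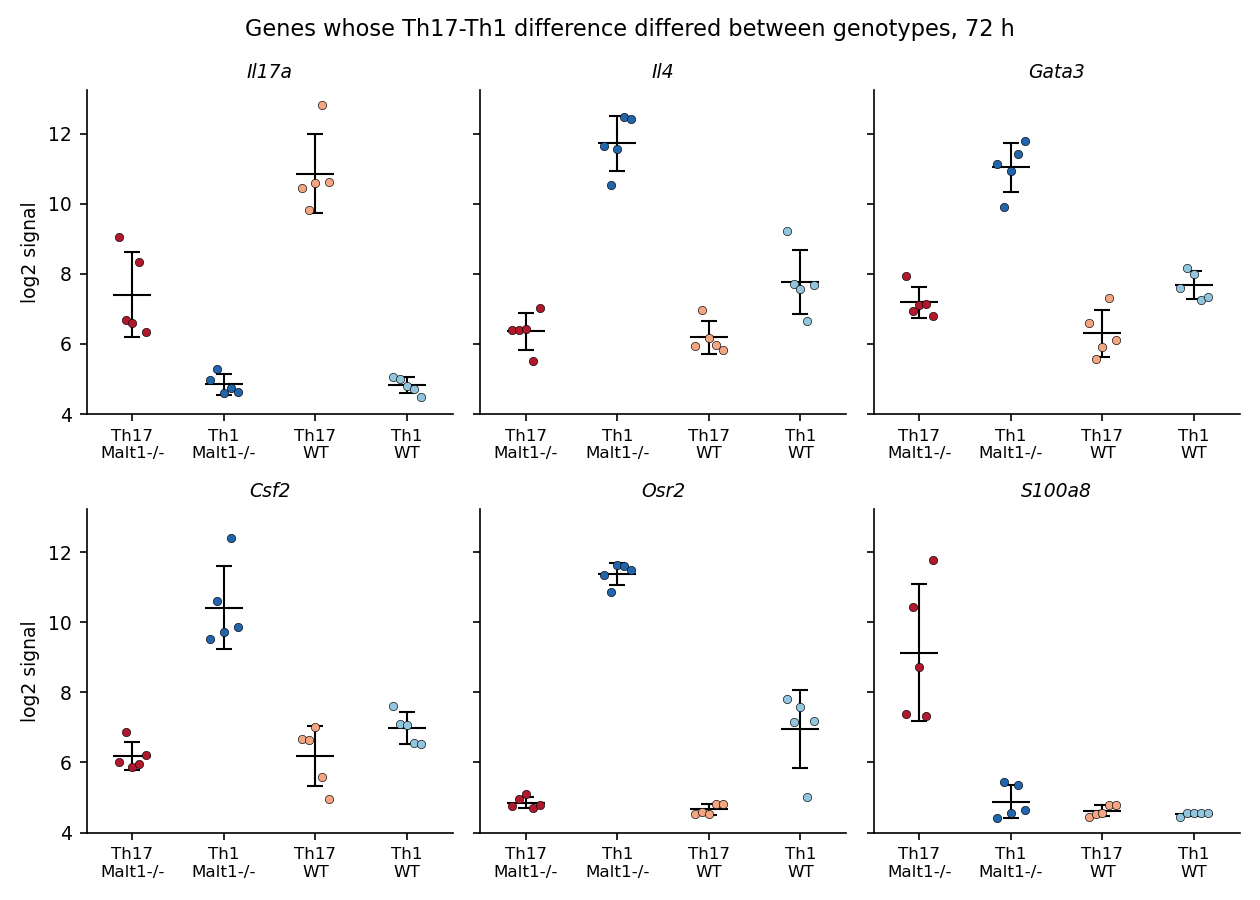
Log2 signal of 6 genes at 72 h on each array of Malt1-/- Th17, Malt1-/- Th1, WT Th17 and WT Th1 cells, from left to right in each panel; points are arrays, the line is the mean and the bar its SD (n = 5 each). Il17a is lower in Malt1-/- Th17 than in WT Th17 cells, Il4, Gata3, Csf2 and Osr2 are higher in Malt1-/- Th1 than in WT Th1 cells, and S100a8 is raised in Malt1-/- Th17 cells alone of the 4 groups shown.

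In the other direction, S100a8 was detected on no WT array at 72 h, where it averaged 4.62 ± 0.15 in Th17 and 4.54 ± 0.06 in Th1 cells (SD, n = 5 each), and its fitted difference of differences, against these signals below background, was 4.15 ± 0.90 (SE, adjusted p = 0.014). It was not called without background correction (2.28, adjusted p = 0.062) or with array quality weights (adjusted p = 0.13), and was 3.49 without Th17 replicate 5. Lyz1 and S100a9, undetected in Th1 cells of both genotypes, gave fitted values of 2.43 ± 0.53 and 3.26 ± 0.78 (SE, adjusted p = 0.014 and 0.031). Neither was called when only the arrays compared were fitted (adjusted p = 0.087 and 0.13), the call for S100a9 being lost when Th17 replicate 2 or 5 or Th1 replicate 1, 3 or 5 was left out. Kynu, an enzyme of tryptophan breakdown, averaged 7.61 ± 0.58 and 5.03 ± 0.7 in Malt1-/- Th17 and Th1 cells and 5.26 ± 0.69 and 5.19 ± 0.49 in WT Th17 and Th1 cells (SD, n = 5 each). Its fitted difference of differences was 2.52 ± 0.48 (SE, adjusted p = 0.0041), with means near background in all groups but Malt1-/- Th17. Fscn1, an actin bundler, and Il18r1, the interleukin-18 receptor, were not called in Malt1-/- cells (0.76 and 0.69) and fell in WT Th17 cells by 2.05 and 1.89, and the differences of differences were 2.81 ± 0.59 and 2.59 ± 0.60 (SE, adjusted p = 0.011 and 0.024). The call for Il18r1 was lost without Th17 replicate 5, without Th1 replicate 5 and with median scaling (adjusted p = 0.055, 0.076 and 0.09), and those of both genes when only the arrays compared were fitted (adjusted p = 0.082 for Fscn1 and 0.088 for Il18r1).

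Of the mitosis genes Bub1b, Kif22 and Cenpa, a centromere histone, and of the replication genes Tk1, a thymidine kinase, were called in this test; Cenpa and Tk1 lay outside the naming rule and were chosen after their values were seen. Their lineage differences were larger in Malt1-/- than in WT cells by 0.67 ± 0.16, 0.69 ± 0.16, 0.60 ± 0.15 and 1.01 ± 0.20 (SE, adjusted p = 0.028, 0.03, 0.036 and 0.0076). Leaving out single arrays ended the calls of Bub1b, Kif22 and Cenpa in 5, 6 and 7 of 10 cases (the arrays are named with the flagged results), and 3 other Tk1 probes were not called in Malt1-/- cells. None of the 4 was called with median scaling (adjusted p = 0.5, 0.4, 0.33 and 0.14) or when only the arrays compared were fitted (0.24, 0.23, 0.21 and 0.088). With averaged probes the difference of differences was 0.34 for Tk1 and 0.47 for Cenpa, without a call for either (adjusted p = 0.46 and 0.42). In WT cells 1 of the 19 mitosis genes was higher in Th17 cells and 1 lower, with a median of -0.1, and of the 26 replication genes none was higher and 4 were lower. Over all genes 9.66% were higher and 9.2% lower in WT Th17 cells.

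The lineage difference in Malt1-/- cells was also set against that at 48 h. Replicate 2 of the Malt1-/- Th1 cells at 48 h lay slightly closer to the 72 h group of its lineage (0.9887) than to its own group (0.988). The array that correlated best with replicate 2 of the Malt1-/- Th1 cells at 72 h was this 48 h array (0.9879). At 48 h 1991 genes were called (18.6%), 1055 higher in Th17 (9.83%) and 936 lower (8.72%), and 1188 genes were called at both times, 53.3% of the 72 h calls and 59.7% of the 48 h calls, 1187 of them in the same direction. The difference between times was called for 22 genes (0.205%), 3 with a higher value at 72 h (0.028%) and 19 with a lower one (0.177%); at an unadjusted p under 0.05 there were 998 (9.3%). Ccr8 read 9.18, 10.17, 9.07, 8.65 and 10.11 in Th17 and 9.22, 7.08, 9.56, 9.12 and 10.11 in Th1 cells at 72 h, and 10.5, 10.79, 10.59, 10.6 and 10.84 in Th17 and 6.81, 7.09, 6, 6.48 and 6.12 in Th1 cells at 48 h. The groups overlapped at 72 h and were apart at 48 h, and the lineage difference was 0.42 at 72 h and 4.16 at 48 h, a change of -3.74 ± 0.70 (SE, adjusted p = 0.0071).

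Osr2, Scin, Efna5, Sox5 and Wdr78 were lower in Th17 cells at 72 h and closer between lineages at 48 h. Osr2 averaged 11.38 ± 0.31 at 72 h and 8.33 ± 0.99 at 48 h in Th1 cells (SD, n = 5 each) and was detected on no Th17 array at either time. Its lineage difference changed by a fitted -2.82 ± 0.54 (SE, adjusted p = 0.008), again from Th17 signals below background. That of Scin was -4.54 at 72 h and -2.10 at 48 h and changed by -2.44 ± 0.47 (SE, adjusted p = 0.008). Efna5, Sox5, a transcription factor, and Wdr78 were lower in Th17 cells at 72 h by 5.64-fold, 5.87-fold and 5.11-fold and were not called at 48 h (log2 differences 0.15, -0.36 and -0.56). Their changes were -2.65 ± 0.45, -2.20 ± 0.39 and -1.79 ± 0.39 (SE, adjusted p = 0.0041, 0.0053 and 0.035), that of Wdr78 without a call when Th17 replicate 1 or 3 or Th1 replicate 1, 3 or 5 was left out.

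The 3 genes with a higher value at 72 h were Ubd, Slc14a1 and Evi2a. Ubd, the ubiquitin-like protein FAT10, averaged 8.16 ± 0.31 in Th17 and 7.42 ± 0.59 in Th1 cells at 72 h and 5.15 ± 0.24 in Th17 and 7.43 ± 0.25 in Th1 cells at 48 h (SD, n = 5 each), a change of 3.03 ± 0.49 (SE, adjusted p = 0.0041). Its Th1 means were within their SD of each other at the 2 times, and its Th17 mean was higher at 72 h. Slc14a1, a urea transporter, was detected on none of the Th1 arrays at 72 h and on all 5 at 48 h, and on 1 Th17 array at 72 h and none at 48 h. The change was called, with a fitted value of 1.31 ± 0.23 (SE, adjusted p = 0.0053) that rests on signals below background. Evi2a changed by 1.18 ± 0.24 (SE, adjusted p = 0.015), without a call when Th17 replicate 3 was left out (1.06, adjusted p = 0.052), with median scaling (adjusted p = 0.43) or with averaged probes (0.29), and its second probe at 72 h differed by 0.02.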

How the data were processed

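Probe intensity on 40 Illumina bead arrays, 8 groups of 5, was deposited per array without normalization between arrays, per the file headers, beside a fraction, 1 minus the detection p-value, also deposited per probe. A deposited table of log2 values, made in a way that no header or label records, differed by at most 0.0104 from quantile-normalized log2 intensity centred on each probe's median. Scanning and culture details are not given in the sources used.

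Intensities were corrected by neqc (normexp on detection p, offset 16, quantile, log2) in limma 3.58.1 (R 4.3.3). Probes with detection p under 0.05 on at least 5 of the 40 arrays were kept (20739 of 45281). With 5 arrays a group, their number limits the precision. Of all probes 34885 had 1 gene symbol, 18 several and 10378 none; 34807 matched RefSeq and 0 symbols changed. The brightest probe stood for each of 10730 genes, and 4274 genes had other kept probes. All 40 arrays were fitted with a mean per group (residual df 32, prior df 4.5), and p-values were adjusted by Benjamini-Hochberg over all genes; the fit was tested on simulated data.

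Members and gene lists were chosen with earlier results of these data known, and lists were described, not tested. Named genes were the 12 largest non-overlapping rises and falls, tested Th17, Th1 and Th2 genes, up to 4 per other list by p, and the 6 largest called differences per direction in each difference test. Malt1 was added as the deleted gene, and Xcl1, Ccr7, Ctla4, Blk, Gbp2, Gbp3, Cxcl9, Socs1 and Ifi47 after their values were seen. So were Foxp3, Rel, Lyz2, Csf1r, Tyrobp, Asns, Atf4, Ddit3, Hspa5, Pdia6, Ifi35, Ifit2, Tapbp, Tgtp1 and Gbp7. Same-numbered arrays were not taken as pairs (correlations of deviations -0.141 to 0.358). Alternatives were another scaling, no background correction, the deposited table, filters, arrays fitted, probe averaging, array weights, a replicate block and arrays left out.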

Additional observations from a re-analysis of the deposited data

Results flagged for a closer look

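In 17 of 310 groups of 5 arrays tested a value stood apart from the other 4 by more than Dixon's 95% limit, where chance gives about 1 in 20. Th1 replicate 2 held 5 of these: Atf3 at 9.4 (nearest other array 10.59), Batf at 11.15 (11.65), Bcl6 at 7.99 (6.54), Bub1b at 11.37 (11.11) and Il12rb1 at 8.83 (9.38). Th17 replicate 1 also held 5: Cxcr5 at 7.29 (8.12), Gcnt2 at 8.63 (9.87), Klrd1 at 11.35 (12.19), Pdlim5 at 8.94 (9.76) and Usp18 at 7.45 (5.82). In Th17 cells Hlx read 5.3 on replicate 2 (4.97), Nusap1 12.82 on replicate 4 (12.72) and Sesn2 4.8 on replicate 4 (6.1). In Th1 cells Aqp3 read 5.7 on replicate 5 (4.8), Cd69 12.54 on replicate 5 (12.82), Sgk1 7.99 on replicate 1 (7.58) and Stat3 10.04 on replicate 3 (10.87).

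The lineage difference differed between Malt1-/- and WT cells, by the test of that difference itself, for Il17a (-3.49), Il4 (-3.79), Gata3 (-2.48), Csf2 (-3.43), Edn1 (-3.3), Efna5 (-3.06) and Osr2 (-4.23, a fitted value from Th17 signals below background), and in the other direction for S100a8 (4.15), S100a9 (3.26), Fscn1 (2.81), Il18r1 (2.59), Kynu (2.52), Lyz1 (2.43), Bub1b (0.67), Kif22 (0.69), Cenpa (0.6) and Tk1 (1.01). The call of Bub1b was lost without Th17 replicate 2 or 5 or Th1 replicate 1, 3 or 5 (adjusted p up to 0.061), that of Kif22 without Th17 replicate 2, 3 or 5 or Th1 replicate 1, 3 or 5 (up to 0.087), and that of Cenpa without Th17 replicate 1, 2, 3 or 5 or Th1 replicate 1, 4 or 5 (up to 0.095).

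Between 72 h and 48 h in Malt1-/- cells it differed for Ccr8 (-3.74), Efna5 (-2.65), Osr2 (-2.82), Scin (-2.44), Sox5 (-2.2) and Wdr78 (-1.79), and in the other direction for Ubd (3.03), Slc14a1 (1.31) and Evi2a (1.18).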

How the results depend on the processing

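Over 22 alternatives the calls of the named genes in the lineage comparison of Malt1-/- cells at 72 h were unchanged for 3282 of 3368 combinations of gene and alternative, with 46 calls lost, 33 gained and 7 signs reversed. Foxp3, Ifngr2, Rel, Lyz2, Csf1r, Tyrobp, Asns, Atf4, Ddit3, Hspa5, Pdia6, Ifi35, Ifit2, Tapbp, Tgtp1 and Gbp7 were left out of these counts. The reversals were in genes that were not called, Ccr8 at -0.07 without Th1 replicate 2 (-0.07 to 0.69 over single arrays left out), -0.25 without the 8 arrays of the series closer to another group and -0.25 without the 2 of them in this comparison (an alternative chosen after seeing the data), Nqo1 at -0.02 without Th17 replicate 2 (-0.02 to 0.29 over single arrays left out) and at 0 without the 8 and 0 without the 2 arrays, and Stat6 at -0.07 with averaged probes. The number of genes called, 2227 in all, was 1463 with median scaling, 2306 with the replicate block and 1962 to 2189 when single arrays were left out. For the difference between genotypes, with 75 genes called (45.3% of them higher), median scaling gave 36 (30.6%), detection on at least 20 arrays 47, fitting only the arrays compared 27 (29.6%) and leaving out the 8 arrays 347. It gave 94 without the 2 arrays, 68 with the replicate block, and 44 (without Th1 replicate 5) to 109 (without Th1 replicate 2) when single arrays were left out; 57 of 412 gene calls were lost and 1 gained. For the difference between 72 h and 48 h, with 22 genes called (13.6% higher), no background correction and the authors' value table gave 36 each (30.6%), detection on at least 20 arrays 12, only the arrays compared 109 (38.5%), averaged probes 39, array quality weights 308 (50.6%), without the 8 arrays 283 (38.9%), without the 2 arrays 65, the replicate block 20, and single arrays left out 15 to 68 (68 without Th1 replicate 2); 10 of 195 gene calls were lost. The replicate numbers were not shown to pair the samples: 3 of 5 Th17 arrays correlated best with the Th1 array of their own number. With the block, Kif22 and Cenpa were not called in the difference between genotypes (adjusted p = 0.06 and 0.059), nor was Wdr78 in that between times (0.081). Median scaling moved the median of all genes to -0.08 in the comparison of times. A block for the slide was not run, since the columns name none. The cause of these changes was not tested. Signals near background limit what can be said of dim genes. Folds of the lineage comparison are given as lower bounds only where a group was detected on no array. Other folds that rest on such signals, among them those of Nt5e and Aqp3, are fitted values. Fitted differences of differences that rest on such signals (Il17a, Osr2, S100a8, S100a9, Lyz1, Edn1, Kynu, Slc14a1) give no size of the change in level.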
